A study of Mus musculus with 27 samples.

Results

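Ileal expression of 5 genes, *Dgkh*, *Agpat3*, *Sytl2*, *Slc6a7* and *Gm15372*, was examined over 8 doses of TCDD (2,3,7,8-tetrachlorodibenzo-*p*-dioxin), a persistent ligand of the aryl hydrocarbon receptor (AhR). The 5 genes, of 46078 in the count tables, were selected on the size of their difference among the 9 groups of these same mice, leaving out classical AhR target genes and clock genes. Their levels and fold changes are therefore given as a description, with standard errors and without tests. In the ordering of the 16741 genes with enough counts to test, *Dgkh* ranked 4, *Agpat3* 6, *Slc6a7* 8, *Sytl2* 11 and *Gm15372* 12. *Ahrr*, *Cyp1a1* and *Cyp1b1*, all AhR targets, held ranks 1 to 3, *Ildr1*, which was not among the 5, ranked 7, and *Per3* and *Selenbp1* followed at 13 and 14. Of all genes tested, 9.53% differed among the groups by this measure at an adjusted p of at most 0.05.

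Epithelium was scraped from the distal ileum of 27 male C57BL/6 mice aged 56 postnatal days. Sesame oil vehicle or 1 of 8 doses of TCDD (0.01, 0.03, 0.1 and 0.3 µg/kg, then 1, 3, 10 and 30 µg/kg) was given by oral gavage every 4 d for 28 d, with 3 mice per group and no genetic modification in any group. Each library held between 12.26 and 17.14 M reads counted on genes. Levels are counts scaled to library size (CPM) after trimmed mean of M-values (TMM) normalization. Mice were co-housed and cage was not in the labels, so cage could not be separated from dose.

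Index barcodes recurred among the libraries, and by the order of mouse numbers 16 libraries (vehicle to 0.3 µg/kg and 1 mouse at 1 µg/kg) held the first use of a barcode and 11 libraries (the other 1 µg/kg mice and all mice at 3 to 30 µg/kg) its second use. What this division stood for at the bench is not in the labels. Apart from the 1 µg/kg group, the effect of dose and that of index use cannot be told apart between the sets, and values within each set are therefore given below. A clock score, the mean z-score of 16 circadian clock genes, also rose with dose. Each z-score first took the sign of that gene's correlation with *Dbp*, itself on the list, over these mice. The direction of the score is thus that of *Dbp*, which had means of 0.522 CPM in vehicle and 41.4 CPM at 30 µg/kg. One library of the highest dose, 30 µg/kg mouse 1, stood apart from the other 2 of its group, with chi-square per degree of freedom of 74.3 and 45.5 over genes against 18.8 between those 2 and at most 22.5 between mice of any other group. Its 6 enterocyte markers summed to 16100 CPM, against 35900 and 30800 CPM in the others of the group and 17100 to 19100 CPM in vehicle. Without it the log2 fold changes at 30 µg/kg were 2.1 for *Dgkh*, 1.88 for *Agpat3*, 0.92 for *Sytl2*, 1.28 for *Slc6a7* and 2.32 for *Gm15372*. In scrapings, more cells of a type and more RNA per cell cannot be told apart.

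The 5 genes belong to different systems. Diacylglycerol is a membrane lipid that activates protein kinase C and is also the precursor of triglyceride, which the intestinal epithelium assembles from dietary fat. Diacylglycerol kinases such as *Dgkh* phosphorylate it to phosphatidic acid, and acyltransferases such as *Agpat3* make phosphatidic acid from lysophosphatidic acid, so both enzymes yield the same lipid. *Sytl2* encodes a synaptotagmin-like protein that binds the small GTPase RAB27 on secretory vesicles and helps them dock at the plasma membrane. *Slc6a7* encodes a sodium-dependent proline transporter that is best known from brain, in a family that includes the main intestinal carriers of neutral amino acids. *Gm15372* is annotated as an unprocessed pseudogene inside the *Ugt1a* locus, which encodes glucuronosyltransferases and holds known AhR targets.

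*Dgkh* (ENSMUSG00000034731; GRCm38 chr14:78558750-78732776, minus strand) stood in separate steps from 3 µg/kg upward. Vehicle mice had 12.7, 10.6 and 12.3 CPM. Mice given 0.01 µg/kg had 12.3, 9.26 and 12.1 CPM, those at 0.03 µg/kg 12.3, 11.7 and 10.9 CPM, those at 0.1 µg/kg 12.0, 13.8 and 12.6 CPM, and those at 0.3 µg/kg 12.9, 8.49 and 13.4 CPM. All these groups overlapped with vehicle. Mice given 1 µg/kg had 13.1, 15.1 and 13.6 CPM, all above the highest vehicle mouse. Levels were 18.3, 19.6 and 19.1 CPM in the 3 µg/kg group, 39.3, 37.5 and 35.6 CPM in the 10 µg/kg group and 50.6, 52.4 and 51.6 CPM in the 30 µg/kg group. From 1 µg/kg upward no group overlapped with the next. The mean was 1.60-fold vehicle at 3 µg/kg, 3.16-fold at 10 µg/kg and 4.34-fold at 30 µg/kg (log2 fold change 2.12 ± 0.13, SE), and the step from 3 to 10 µg/kg, a ratio of means of 1.97, exceeded the others. A Hill curve placed the half-maximal dose at 5.26 µg/kg with 95% limits of 3.82 to 8.85 µg/kg. *Dgkh* was the only member of the 5 for which both limits lay inside the dose range, and on CPM in place of log2 CPM the half-maximal dose was 8.33 µg/kg. For comparison, the same fit gave 4.95 µg/kg (3.82 to 6.30) for *Cyp1b1*, 2.41 µg/kg (1.75 to 4.05) for *Cyp1a1* and 5.93 µg/kg (5.05 to 6.96) for *Ahrr*.

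Promoter windows of 300 bases around a transcription start were available from RefSeq (GRCm38.p6) for *Dgkh* (3 starts) and *Agpat3* (1 start). They were searched on both strands for GCGTG, the core to which AhR and its partner bind, and for the E-box CACGTG, to which clock factors bind. Neither motif contains the other. None of the 4 windows held GCGTG, which 32.4% of 32851 such windows hold. CACGTG occurred once in 2 of the 3 *Dgkh* windows and in 7.15% of all windows. The 5' start of *Dgkh*, shown because AhR targets and clock genes surround the 5 genes in the ranking, is chr14:78732680-78732979 and that of *Agpat3* chr10:78351651-78351950, both on the minus strand, with the E-box in capitals.
Dgkh promoter: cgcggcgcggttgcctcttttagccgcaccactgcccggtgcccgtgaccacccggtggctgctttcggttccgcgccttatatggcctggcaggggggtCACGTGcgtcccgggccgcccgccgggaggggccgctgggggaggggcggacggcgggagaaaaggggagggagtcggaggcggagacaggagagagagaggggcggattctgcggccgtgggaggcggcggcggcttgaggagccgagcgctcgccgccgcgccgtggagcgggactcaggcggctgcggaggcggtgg
Agpat3 promoter: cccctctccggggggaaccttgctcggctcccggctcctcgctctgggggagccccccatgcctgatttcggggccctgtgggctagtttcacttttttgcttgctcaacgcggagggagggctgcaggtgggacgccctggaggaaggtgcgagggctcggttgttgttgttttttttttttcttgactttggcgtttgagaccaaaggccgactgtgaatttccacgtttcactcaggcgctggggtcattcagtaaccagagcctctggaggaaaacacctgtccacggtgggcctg

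The *Dgkh* E-box began at base 101 of its window. A match or its absence describes these letters in this window only, and binding was not measured.

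*Agpat3* (ENSMUSG00000001211; GRCm38 chr10:78269178-78352489, minus strand) had means ordered by dose and its steepest step at the highest dose. The vehicle mice had 30.4, 38.5 and 29.6 CPM. Levels were 34.3, 33.4 and 37.4 CPM in the 0.01 µg/kg group, 35.6, 33.5 and 36.6 CPM in the 0.03 µg/kg group, 41.1, 38.5 and 32.5 CPM in the 0.1 µg/kg group and 42.9, 47.5 and 38.2 CPM in the 0.3 µg/kg group. Each of these groups overlapped with vehicle, although the means were ordered by dose throughout, from 32.8 CPM in vehicle to 42.9 CPM at 0.3 µg/kg. The next groups were at 49.0, 45.7 and 41.6 CPM (1 µg/kg) and 40.8, 47.8 and 51.8 CPM (3 µg/kg). They overlapped with each other and lay above all vehicle mice. At 10 µg/kg the mice had 57.3, 63.0 and 63.3 CPM and at 30 µg/kg 96.0, 121 and 125 CPM, with no overlap between 3, 10 and 30 µg/kg. The last step was a ratio of means of 1.86, against 1.31 for the step before it. At 30 µg/kg the fold change was 3.47 (log2 1.80 ± 0.12, SE). No plateau was reached, and the fitted half-maximal dose stopped at the upper bound of 30 µg/kg (lower limit 12.2). By interpolation between group means of log2 CPM, 0.5 of the log2 change seen at 30 µg/kg was reached at 9.73 µg/kg. This was the highest such dose of the 5 genes.

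**Figure D1:**
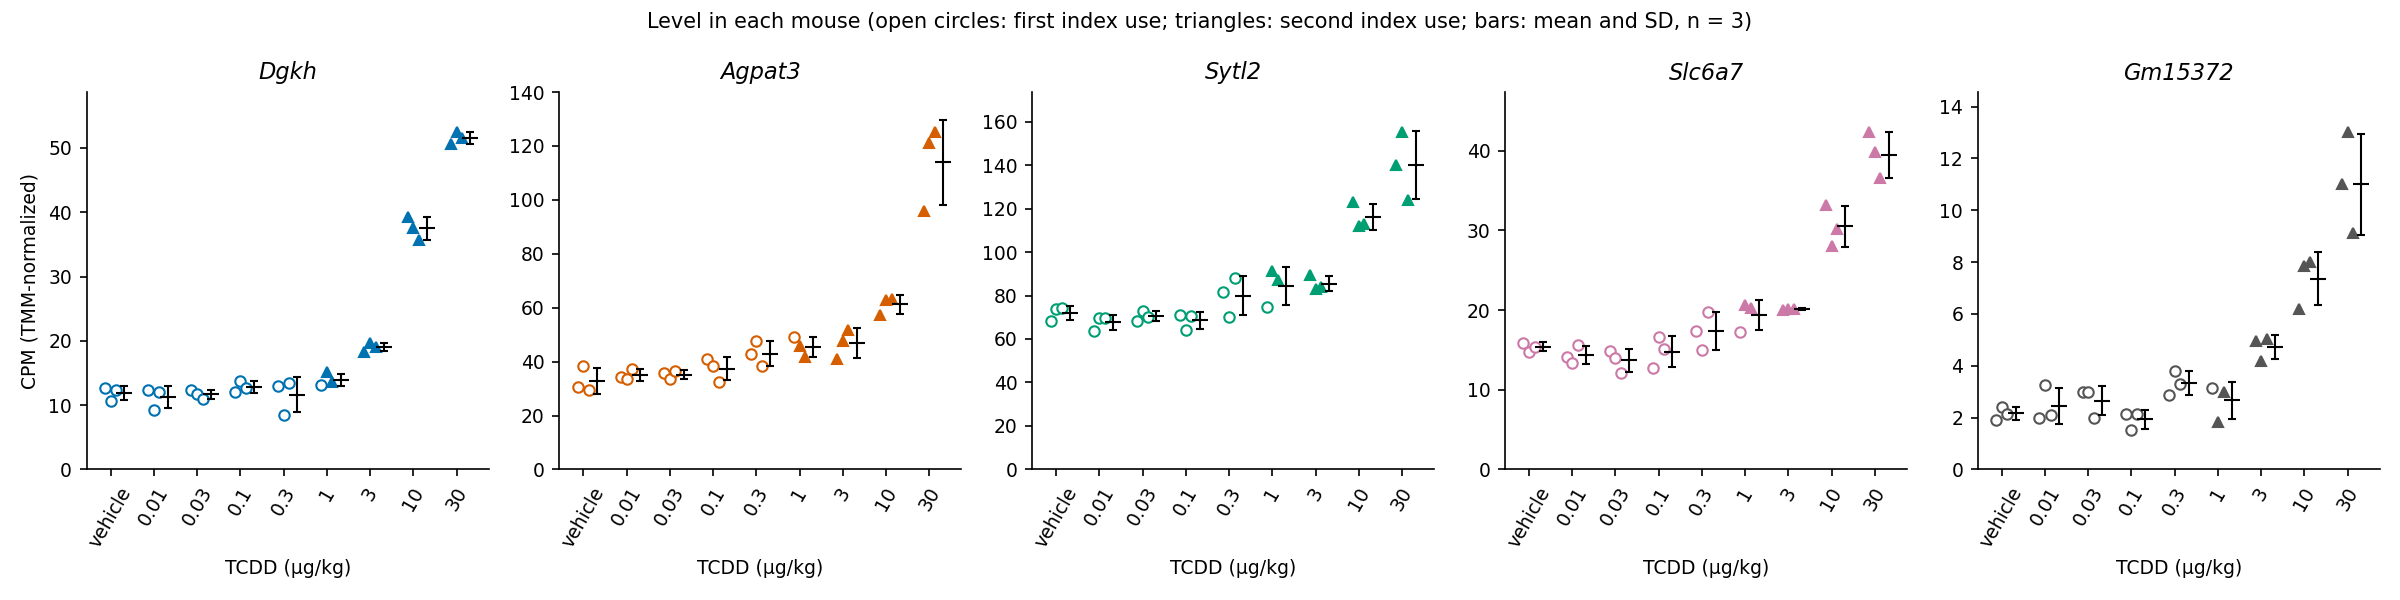
TMM-normalized CPM (y axis, from 0, a scale per gene) of each of 27 mice by TCDD dose (x axis, evenly spaced steps), with open circles for libraries with the first use of an index barcode, triangles for its second use, and the mean ± SD of 3 mice to the right of each group. For each gene the mice at 3, 10 and 30 µg/kg form 3 separate levels, while vehicle to 0.1 µg/kg overlap.

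*Slc6a7* (ENSMUSG00000052026; GRCm38 chr18:60995380-61014222, minus strand) stood apart from all lower doses at 10 and 30 µg/kg. Vehicle mice had 15.9, 14.8 and 15.4 CPM. The 0.01 µg/kg mice had 14.1, 13.4 and 15.6 CPM, the 0.03 µg/kg mice 14.9, 14.0 and 12.1 CPM, the 0.1 µg/kg mice 12.7, 16.6 and 15.1 CPM, and the 0.3 µg/kg mice 17.4, 15 and 19.8 CPM. The lowest doses were thus on both sides of vehicle. Above them, the mice had 17.2, 20.7 and 20.3 CPM in the 1 µg/kg group and 20.0, 20.2 and 20.1 CPM in the 3 µg/kg group, every one above vehicle and the 2 groups overlapping. Levels of 33.2, 28.0 and 30.2 CPM in the 10 µg/kg group and 42.3, 39.8 and 36.6 CPM in the 30 µg/kg group did not overlap with each other or with lower doses. The fold change was 1.31 at 3 µg/kg, 1.98 at 10 µg/kg and 2.57 at 30 µg/kg (log2 1.36 ± 0.11, SE). The Hill fit gave a half-maximal dose of 25.1 µg/kg with limits from 3.97 µg/kg to the bound of 30 µg/kg. Interpolation of log2 CPM gave 5.42 µg/kg. The fitted dose was not stable, at 11.0 to 30.0 µg/kg without single mice (11.0 without 3 µg/kg mouse 1 or mouse 3), 12.7 with DESeq2 size factors and 11.3 with library size only.

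*Sytl2* (ENSMUSG00000030616; GRCm38 chr7:90302252-90410719, plus strand) had the highest counts and the smallest fold change of the 5 genes. In vehicle it was at 68.4, 73.7 and 74.3 CPM. Mice had 63.9, 69.8 and 69.5 CPM in the 0.01 µg/kg group, 68.3, 73.1 and 70.2 CPM in the 0.03 µg/kg group, 71.1, 64.1 and 70.6 CPM in the 0.1 µg/kg group and 81.6, 70.3 and 88.2 CPM in the 0.3 µg/kg group. None of the mice at 0.01 to 0.1 µg/kg exceeded the highest vehicle mouse. The levels were 74.5, 91.5 and 87.0 CPM in the 1 µg/kg group, 89.3, 83.0 and 84.0 CPM in the 3 µg/kg group, 123, 112 and 113 CPM in the 10 µg/kg group and 140, 155 and 124 CPM in the 30 µg/kg group. The 1 and 3 µg/kg groups overlapped, and 3, 10 and 30 µg/kg did not. The fold change was 1.61 at 10 µg/kg and 1.94 at 30 µg/kg (log2 0.95 ± 0.09, SE). Its fitted half-maximal dose was at the bound of 30 µg/kg (lower limit 4.14), and interpolation of log2 CPM gave 5.65 µg/kg. Without single mice the fit ranged from 11.3 (without 0.3 µg/kg mouse 3) to 30.0 µg/kg, and it was 15.8 with DESeq2 size factors and 13.5 with library size only.

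*Gm15372* (ENSMUSG00000084195; GRCm38 chr1:88126776-88127609, plus strand) is a single exon of 834 bases. It lies in an intron of *Ugt1a6b*, *Ugt1a7c*, *Ugt1a8*, *Ugt1a9* and *Ugt1a10*, upstream of the exons these genes share, and none of its bases is exonic in another gene. Its sequence is 85.2% identical to the *Ugt1a7c* transcript over 833 aligned bases and 80.6 to 80.9% identical to *Ugt1a8*, *Ugt1a9* and *Ugt1a10*. The stretch of 90 bases below, bases 406 to 495 of *Gm15372* and 482 to 571 of the *Ugt1a7c* transcript (GENCODE M21, GRCm38, transcript strand), shows how far reads can be told apart, with the 16 differing bases in capitals.
Gm15372: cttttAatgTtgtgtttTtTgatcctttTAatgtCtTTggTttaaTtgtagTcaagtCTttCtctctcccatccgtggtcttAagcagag
Ugt1a7c: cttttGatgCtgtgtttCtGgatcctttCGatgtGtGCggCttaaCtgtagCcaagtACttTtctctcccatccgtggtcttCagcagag

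No stretch of 50 bases of *Gm15372* was found in an annotated transcript of a *Ugt1a* coding gene, and 3.06% were shared with the pseudogene *Gm15374*. The search did not cover introns. Counts of *Gm15372* were the lowest of the 5 genes, from 19 to 168 per mouse, and counting error was largest here. Vehicle mice had 1.90, 2.42 and 2.15 CPM. At 0.01 to 1 µg/kg the 15 mice ranged from 1.51 to 3.8 CPM, with group means of 2.45, 2.65, 1.93, 3.32 and 2.66 CPM in order of dose, which followed no order. From there the groups separated, with 5.0, 4.20 and 5.04 CPM in the 3 µg/kg group, 6.19, 7.86 and 8.02 CPM in the 10 µg/kg group and 11.0, 13.0 and 9.12 CPM in the 30 µg/kg group. The fold change was 2.19, 3.41 and 5.10 at these doses, the last with a log2 fold change of 2.35 ± 0.23 (SE). The half-maximal dose was 5.7 µg/kg with limits of 2.41 µg/kg and the bound of 30 µg/kg. It was 21.8 µg/kg on CPM in place of log2 CPM, 3.31 µg/kg by interpolation of log2 CPM and 8.67 µg/kg without 1 µg/kg mouse 2.

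**Figure D2:**
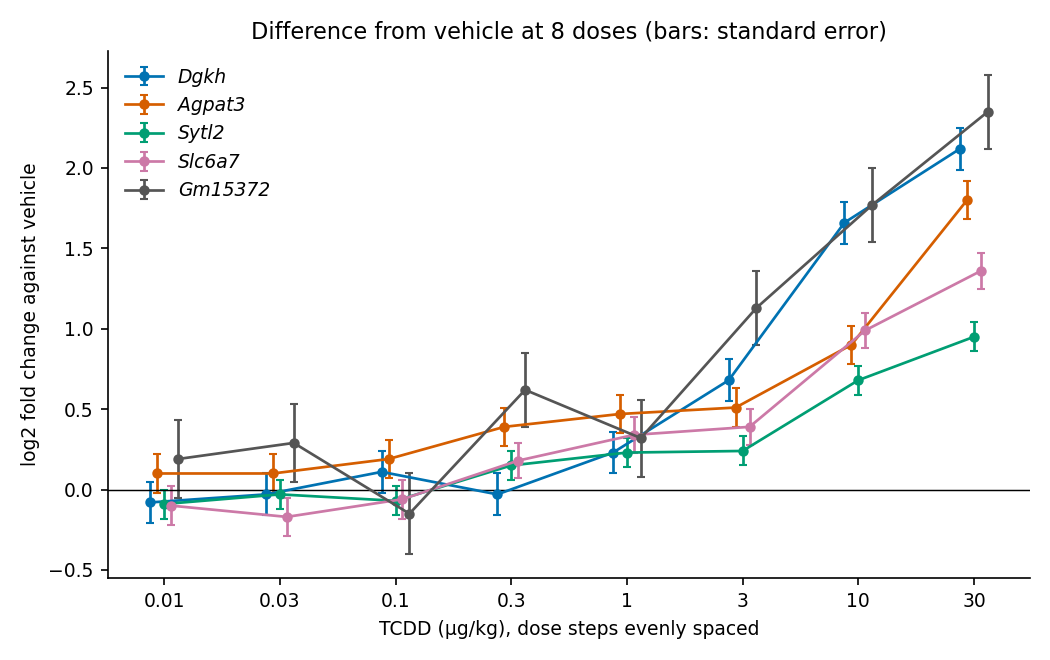
Log2 fold change against vehicle (y axis) of the 5 genes at 8 TCDD doses (x axis, evenly spaced steps), with standard errors from the fit of all 27 mice. The curves lie within 0.30 of 0 at 0.01 to 0.1 µg/kg and spread to between 0.95 (*Sytl2*) and 2.35 (*Gm15372*) at 30 µg/kg.

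All 3 mice lay above all vehicle mice for none of the 5 genes at 0.01, 0.03 and 0.1 µg/kg, where this was so for 5.63, 4.49 and 7.01% of all genes tested. It held for 1 of 5 (*Gm15372*) at 0.3 µg/kg (8.06% of all genes), for 4 of 5 at 1 µg/kg (10.3%, *Gm15372* excepted), and for 5 of 5 at 3, 10 and 30 µg/kg (12.4, 11.5 and 13.7%). These counts follow from how the genes were chosen and are set beside the background only to be read as levels. Per kilobase of exon, the vehicle means were 0.698 RPKM for *Dgkh*, 2.58 for *Gm15372*, 4.21 for *Agpat3*, 4.46 for *Slc6a7* and 5.17 for *Sytl2*. *Dgkh* was thus lowest in vehicle by this measure despite its CPM. Exon length was that of all annotated exons of a gene together, and which transcript forms were expressed was not examined. At 30 µg/kg *Dgkh* was still lowest at 3.03 RPKM and *Agpat3* was highest at 14.6 RPKM, *Sytl2* being at 10.0, *Slc6a7* at 11.5 and *Gm15372* at 13.2 RPKM.

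The rank correlation with dose over 27 mice (Spearman's rho, as a description) was 0.86 for *Dgkh*, 0.91 for *Agpat3*, 0.85 for *Sytl2*, 0.86 for *Slc6a7* and 0.79 for *Gm15372*. Within the 16 libraries of first index use, vehicle to 0.3 µg/kg and 1 mouse at 1 µg/kg, rho was 0.36, 0.68, 0.39, 0.37 and 0.46 in the same order. It was 0.97, 0.92, 0.85, 0.83 and 0.97 within the 11 libraries of second index use, which cover 1 to 30 µg/kg. Levels in the libraries of second index use were therefore graded from 1 to 30 µg/kg. The genes were chosen on differences among the groups of these same mice, so this grading follows in part from that choice. The part of index use in the levels was not tested. At 1 µg/kg, the 1 dose with both uses, the first-use mouse was lowest for *Dgkh* (13.1 against 15.1 and 13.6 CPM), *Sytl2* (74.5 against 91.5 and 87.0 CPM) and *Slc6a7* (17.2 against 20.7 and 20.3 CPM) and highest for *Agpat3* (49.0 against 45.7 and 41.6 CPM) and *Gm15372*. With index use as a covariate, which rests on these 3 mice, log2 fold changes at 30 µg/kg were 1.99, 1.96, 0.70, 1.11 and 2.72 for *Dgkh*, *Agpat3*, *Sytl2*, *Slc6a7* and *Gm15372*. At lower doses the same covariate took *Slc6a7* from 0.34 to 0.16 at 1 µg/kg and from 0.39 to 0.13 at 3 µg/kg, and *Sytl2* from 0.23 to 0.05 and from 0.24 to -0.02.

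The 5 genes also differed in how they varied between mice given the same dose. The SD of log2 CPM within groups was 0.11 for *Sytl2*, 0.13 for *Slc6a7*, 0.15 for *Agpat3*, 0.16 for *Dgkh* and 0.27 for *Gm15372*. Over all 27 mice, pairs of the 5 genes had Pearson's r of 0.87 to 0.96 on log2 CPM, which the shared choice on dose fixes in large part. After group means were removed, r was 0.70 for *Dgkh* with *Slc6a7* and 0.43 for *Sytl2* with *Slc6a7*, but -0.55 for *Dgkh* with *Gm15372* and -0.49 for *Agpat3* with *Slc6a7*. These are descriptions over 27 libraries that share normalization.

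Genes whose log2 CPM followed each of the 5 most closely over the 27 mice were named by Pearson's r. These r values include the group differences on which the 5 genes were chosen. High values follow in large part from that choice. For *Dgkh* they were *Ahrr*, the AhR repressor (r = 0.97), *Ildr1*, a protein of tricellular junctions (0.97), and *Cyp1a1* (0.96). *Agpat3* was most like *Cyp27a1*, the sterol 27-hydroxylase (0.95), *Slc25a4*, a mitochondrial ADP/ATP carrier (0.94), and *Capn9*, a calpain of the digestive tract (0.93), and its lowest r was with *Slc40a1*, the iron exporter ferroportin (-0.94). *Sytl2* and *Slc6a7* were each other's closest gene (0.96), followed by *Ildr1* and *Dgkh* for *Sytl2* (both 0.94), and by *Dgkh* (0.96) and the vesicle motor *Myo5c* (0.95) for *Slc6a7*. *Gm15372* was closest to *Ugt1a7c* (0.95), *Ugt1a6a* (0.93) and *Prkag2*, a subunit of AMP-activated kinase (0.92). The lowest r was with *Pnp2* for *Dgkh* (-0.90), *Gm49342* for *Sytl2* (-0.90) and *Slc6a7* (-0.92), and *Sprr2a2* for *Gm15372* (-0.89).

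The clock score was set beside the 5 genes because clock genes were among those that differed most. It ranged from -1.09 to -0.81 in vehicle and from 0.97 to 1.32 at 30 µg/kg, and its r with the 5 genes over all mice was 0.77 to 0.82. Within groups r was 0.07 for *Dgkh*, 0.40 for *Agpat3*, -0.16 for *Sytl2*, 0.15 for *Slc6a7* and 0.03 for *Gm15372*. Of the 16 clock genes, 9 were called at 1 µg/kg, 12 at 3 µg/kg and 14 at 10 and at 30 µg/kg, in either direction, against 0.591, 1.11 and 2.53% of all genes tested at 1, 3 and 10 µg/kg. In 1 mouse at 0.01 µg/kg the clock score was 0.66, within the range of the mice at 1 and 3 µg/kg, while *Dgkh* was at 12.1 CPM and *Agpat3* at 37.4 CPM there, both within the range of vehicle. From 3 to 30 µg/kg *Dgkh* rose from at most 19.6 to at least 50.6 CPM while the score ranges were 0.56 to 1.00 and 0.97 to 1.32. With the clock score as a covariate, the log2 fold change at 30 µg/kg was 2.06 for *Dgkh*, 1.06 for *Sytl2*, 1.25 for *Slc6a7* and 2.27 for *Gm15372*, and 1.44 against 1.80 without it for *Agpat3*. For *Agpat3* it also changed the log2 fold change from 0.47 to 0.23 at 1 µg/kg, from 0.51 to 0.21 at 3 µg/kg and from 0.90 to 0.57 at 10 µg/kg.

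**Figure D3:**
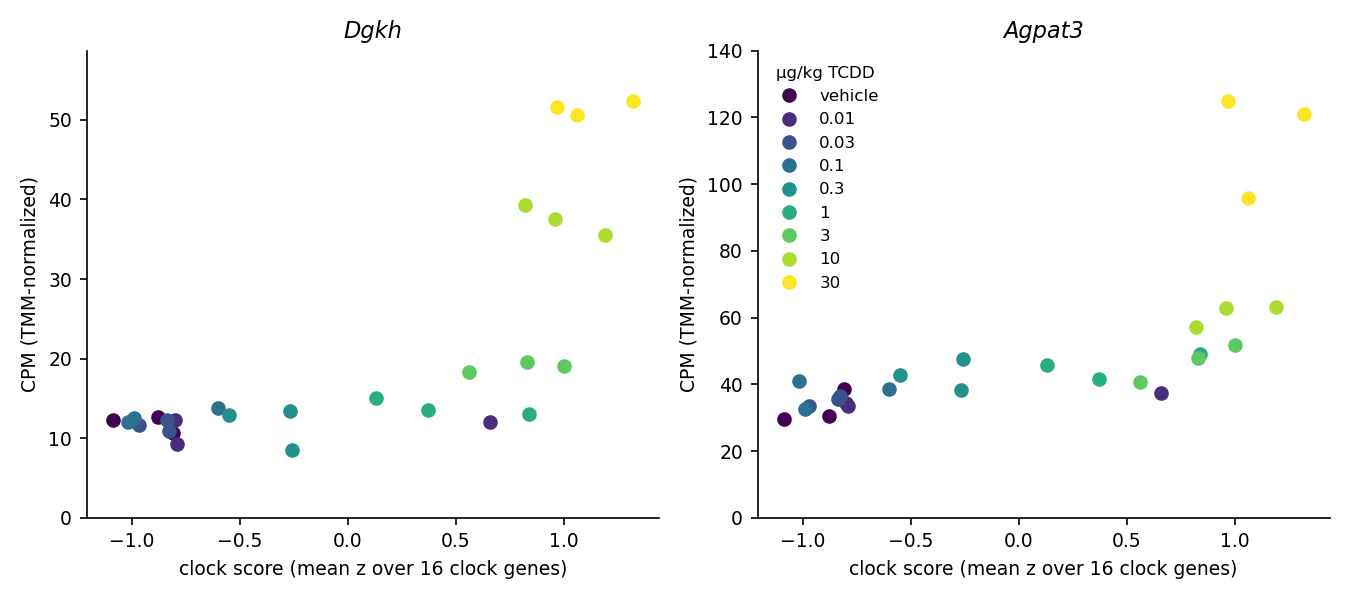
CPM of *Dgkh* (left) and *Agpat3* (right) on the y axis against the clock score on the x axis in 27 mice, coloured by TCDD dose. *Dgkh* stays between 8.49 and 15.1 CPM over scores from -1.09 to 0.84 in mice at up to 1 µg/kg, and mice with scores near 1 differ in *Dgkh* by dose.

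Genes beside each of the 5 were tested at 30 µg/kg, where a call needed an adjusted p of at most 0.05 over 16741 genes in edgeR's quasi-likelihood test and a fold change of at least 1.5 (5.42% of genes were called higher and 3.98% lower). This balance depended on scaling and on single mice, since 908 higher and 666 lower calls became 604 and 1048 with library size only, which moved the median of all genes from 0.02 to -0.11, 1165 and 1343 without 30 µg/kg mouse 1 and 527 and 351 without mouse 2. Next to *Dgkh*, *Akap11*, which anchors protein kinase A, had a log2 fold change of 0.08 (adjusted p = 0.633) and *Vwa8* one of 0.28 (adjusted p = 0.0393, under the fold limit). The neighbours of *Agpat3*, *Trappc10* (0.11, adjusted p = 0.393) and *Pwp2* (-0.30, adjusted p = 0.215), and of *Sytl2*, *Crebzf* (0.02, adjusted p = 0.885), were not called. Beside *Slc6a7*, the growth factor receptor *Pdgfrb* was called lower (-0.66, adjusted p = 0.00608), the intestinal transcription factor *Cdx1* was at -0.42 (adjusted p = 0.00552, under the fold limit) and *Camk2a* was not called (-0.10, adjusted p = 0.886). No tested neighbour of these 4 genes was called higher.

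The surroundings of *Gm15372* differed from this. Of its 6 tested neighbours 5 were called higher, namely *Ugt1a7c* (log2 fold change 1.86 ± 0.13, adjusted p = 6e-10), *Ugt1a6a* (1.69 ± 0.17, adjusted p = 9.55e-07), *Ugt1a6b* (1.63 ± 0.24, adjusted p = 6.99e-05), the pseudogene *Gm15370* (2.80 ± 0.43, adjusted p = 0.000123) and *Gm20528* on the opposite strand (1.18 ± 0.37, adjusted p = 0.0274). Counts were low for *Gm20528* (5 to 21 per mouse) and *Gm15370* (2 to 54 per mouse). *Gm15373* was not called (0.86, adjusted p = 0.158), and *Ugt1a8*, *Ugt1a9* and *Ugt1a10* had at most 9 counts in any mouse. *Ugt1a7c* had 32.4, 35.2 and 32.9 CPM in vehicle and 120, 124 and 122 CPM in the 30 µg/kg group, so its groups stood far apart. *Gm15372* overlaps introns of *Ugt1a7c*, and unspliced reads of that gene would fall on it, so its own transcription and intron reads cannot be told apart in these counts. Whether strand was used in counting is not given in the sources used here.

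**Figure D4:**
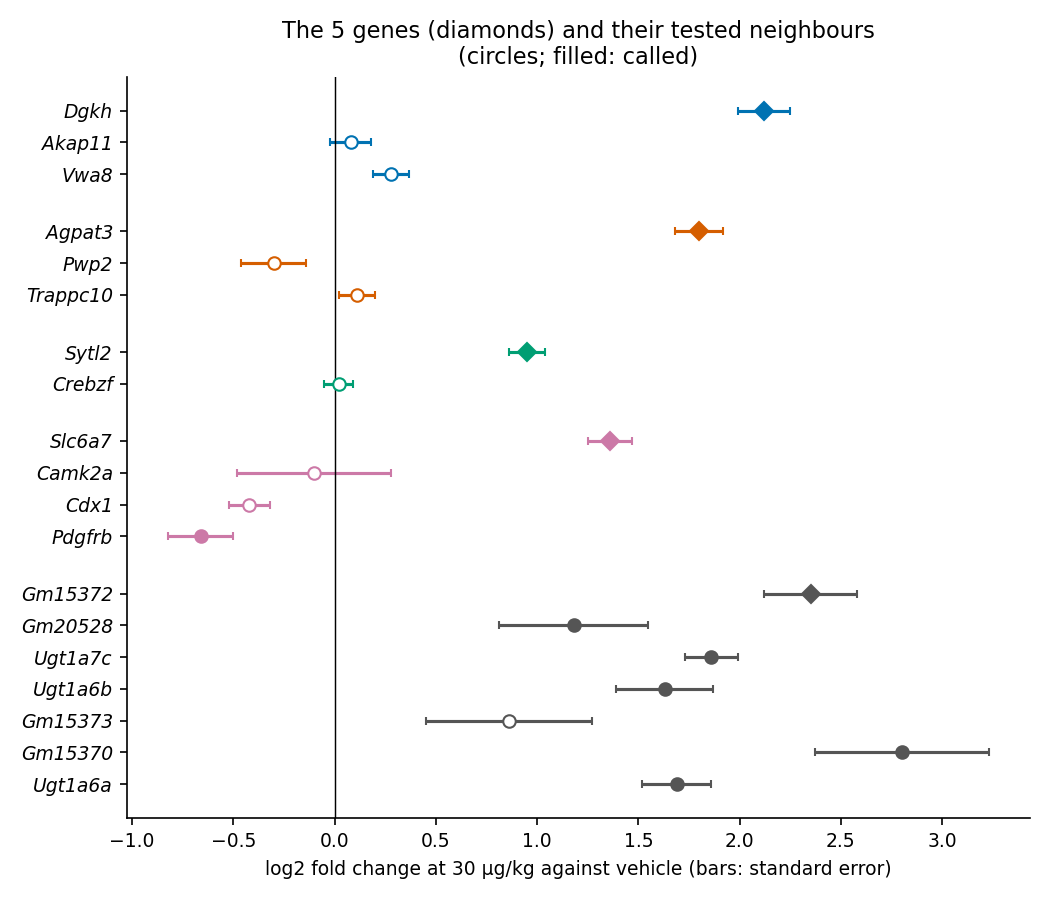
Log2 fold change at 30 µg/kg against vehicle (x axis) with standard errors for the 5 genes (diamonds, described only) and their tested neighbours (circles, filled where called), grouped by gene. Neighbours of *Dgkh*, *Agpat3*, *Sytl2* and *Slc6a7* lie between -0.66 and 0.28, and those of *Gm15372* between 0.86 and 2.80.

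Relatives of the 5 genes, from lists of enzymes and transporters, were tested in the same way. Of all genes tested, 5.42% were called higher and 3.98% lower at 30 µg/kg, and 10.1% were called at 1 or more doses. The list counts at 30 µg/kg below are to be read beside the first 2 of these shares. Among the 8 other diacylglycerol kinases with enough counts, 2 were called higher at 30 µg/kg and none lower, with a median log2 fold change of 0.63 against 0.02 over all genes. *Dgkd*, the closest relative of *Dgkh*, had 366, 402 and 363 CPM in vehicle and 442, 800 and 617 CPM in the 30 µg/kg group, which did not overlap (0.72 ± 0.14, adjusted p = 0.00116). *Dgkg* had 1.02 CPM in vehicle, from 11 to 18 counts per mouse. It was 1.81, 1.43, 1.75 and 2.56-fold vehicle at 0.01, 0.03, 0.1 and 0.3 µg/kg, where it was not called. The fold change was 2.34 at 1 µg/kg (adjusted p = 0.0234) and 2.64 at 30 µg/kg (adjusted p = 0.000738), with no further increase above 3 µg/kg. *Dgki* was called at 10 µg/kg only (log2 2.00, adjusted p = 0.00383) and had a log2 fold change of 0.92 (adjusted p = 0.115) at 30 µg/kg. *Dgka*, the kinase best known from T cells, was at 0.55 (adjusted p = 0.00144), under the fold limit. *Dgkb*, *Dgke*, *Dgkq* and *Dgkz* were not called, and *Dgkk* had too few counts. The call of *Dgkd* was lost without 30 µg/kg mouse 2 (log2 0.49).

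Acyltransferases around *Agpat3* did not follow it. Of 15 others tested, 2 were called lower at 30 µg/kg and none higher (median log2 fold change -0.10). *Agpat4*, which carries out the same reaction, had 21, 18.6 and 22.4 CPM in vehicle and 11.6, 7.81 and 7.25 CPM in the 30 µg/kg group, a fall of 2.31-fold without overlap (log2 -1.21 ± 0.15, adjusted p = 1.32e-05). *Mboat1*, a lysophospholipid acyltransferase, fell 1.74-fold (adjusted p = 0.00716). *Agpat1* (0.19, adjusted p = 0.197), *Agpat2* (-0.15, adjusted p = 0.551) and *Agpat5* (-0.52, adjusted p = 0.0631) were not called. Of 17 genes that make or use diacylglycerol and phosphatidic acid, 1 was called, *Daglb*, a diacylglycerol lipase, which fell 1.63-fold (adjusted p = 0.00542). The lipins, *Dgat1* and *Dgat2*, which form triglyceride from the same precursor, and the phospholipases D were not called, and the list median was -0.02. Without 30 µg/kg mouse 2 the calls of *Mboat1* (log2 -0.60) and *Daglb* (-0.50) were lost.

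Of 11 RAB27 and synaptotagmin-like genes other than *Sytl2*, 3 were called higher at 30 µg/kg and none lower (median log2 fold change 0.41). *Rab27a* itself had 25.4, 26.6 and 26.5 CPM in vehicle and 45.8, 38.7 and 41.8 CPM in the 30 µg/kg group, a 1.61-fold rise (log2 0.69 ± 0.11, adjusted p = 0.000115). *Sytl1* was called from 3 µg/kg upward and rose 1.76-fold at 30 µg/kg (adjusted p = 0.000178), with 8.10, 8.66 and 7.89 CPM in vehicle against 17.0, 14.0 and 12.5 CPM. *Myrip*, which links RAB27A to myosin, rose 1.80-fold (adjusted p = 0.00556). *Sytl3*, *Sytl4* and *Sytl5* had log2 fold changes of 0.26, 0.46 and 0.57 and were not called, nor were *Rab27b*, *Mlph*, *Exph5*, *Unc13d* and *Rph3al*.

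In the SLC6 family, 6 of 10 other transporters with enough counts were called higher at 30 µg/kg and 1 lower (median log2 fold change 0.94), and 9 had too few counts. *Slc6a6*, the taurine transporter, had 311, 339 and 320 CPM in vehicle and 580, 679 and 583 CPM in the 30 µg/kg group (1.90-fold, adjusted p = 2.07e-06). *Slc6a4*, the serotonin transporter, was called at every dose from 1 µg/kg and rose 2.31-fold at 30 µg/kg (adjusted p = 6.43e-06), with 29.4, 37.6 and 31.1 CPM in vehicle and 65.0, 80.4 and 81.2 CPM. *Slc6a20a*, the carrier of proline and related imino acids, rose 2.07-fold (adjusted p = 7.41e-05) and its close paralog *Slc6a20b* 2.15-fold (adjusted p = 0.00166), and reads could be split between these copies. These 4 called genes did not overlap between vehicle and 30 µg/kg. Of all genes tested, 13.7% had all 3 mice at 30 µg/kg above all vehicle mice.

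The other calls in this family varied between mice. *Slc6a19*, the main neutral amino acid transporter of the brush border, had 857, 930 and 920 CPM in vehicle but 755, 2540 and 1960 CPM in the 30 µg/kg group, so that 1 treated mouse was below vehicle (1.94-fold, adjusted p = 0.0165). The same mouse was within the vehicle range for *Slc6a18* (9.53 CPM, against 38.3 and 39.7 CPM in the others and 8.36 to 16.3 CPM in vehicle). *Slc6a14*, a broad amino acid transporter, was at 92.5, 48.1 and 162 CPM in vehicle and at 3.01, 3.71 and 40.5 CPM in the 30 µg/kg group (log2 -2.70 ± 0.82, adjusted p = 0.0252). Each of these 3 calls was lost without single mice. The log2 fold change of *Slc6a19* was then 0.59 without 30 µg/kg mouse 2, 0.87 without mouse 3, and 0.91 and 0.97 without vehicle mice 1 and 3. That of *Slc6a18* was 1.06 and 1.02 without 30 µg/kg mice 2 and 3 and 1.23 and 1.08 without vehicle mice 1 and 2. That of *Slc6a14* was -2.23 without 30 µg/kg mouse 1 or mouse 2 and -2.18 without vehicle mouse 3, and it was -4.91 without 30 µg/kg mouse 3, where the call was kept. For *Slc6a7*, 30 µg/kg mouse 1, the low mouse for *Slc6a19* and *Slc6a18*, had the highest level of the group, 42.3 CPM, and its log2 fold change was 1.28 without that mouse.

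Of 12 proline-handling genes tested, 2 were called at 30 µg/kg. *Prodh*, which starts proline breakdown, had 60.2, 75.2 and 61.9 CPM in vehicle and 115, 106 and 112 CPM in the 30 µg/kg group (1.69-fold, adjusted p = 0.000337). *Aldh18a1*, which makes the precursor of proline, fell 1.72-fold from 81.9, 89.3 and 96.4 CPM to 66.8, 39.2 and 49.7 CPM (adjusted p = 0.000756). The proline carriers *Slc36a1* (-0.36, adjusted p = 0.292) and *Slc38a2* (-0.18, adjusted p = 0.361) were not called.

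**Figure D5:**
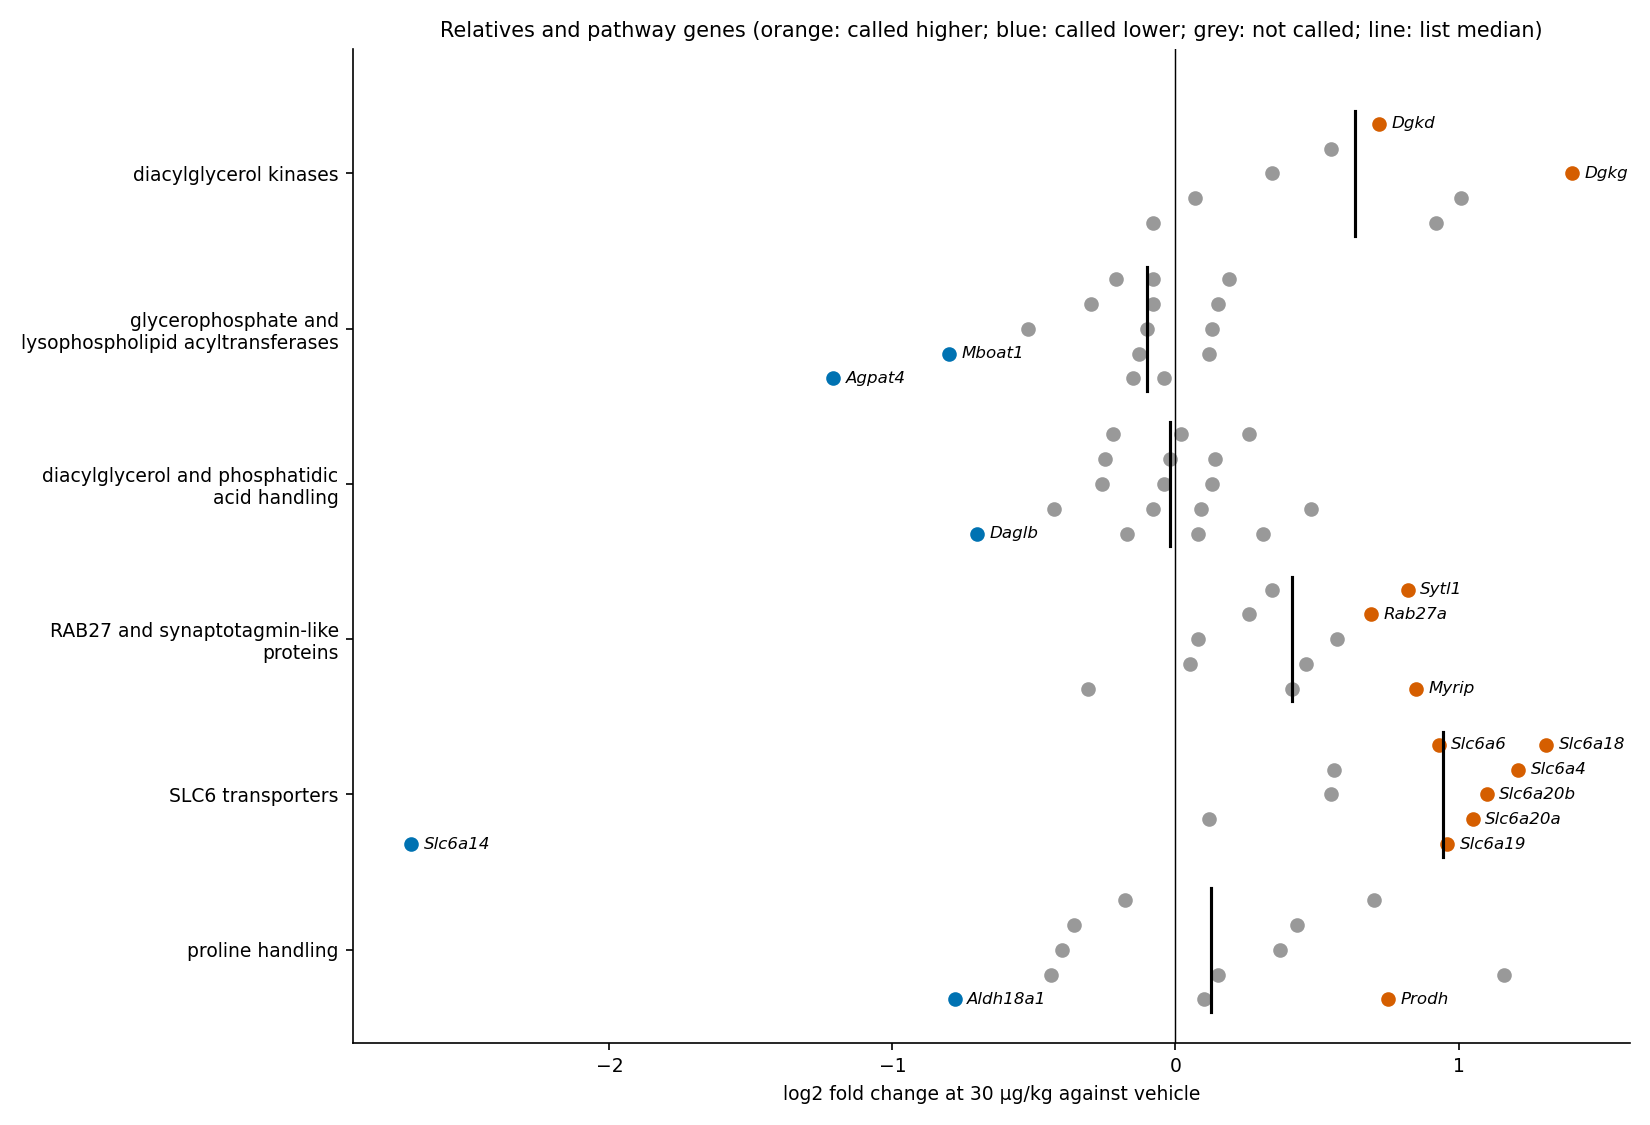
Log2 fold change at 30 µg/kg against vehicle (x axis) of each tested gene in 6 lists other than the 5 genes themselves, with orange points called higher, blue called lower and grey not called, vertical scatter for legibility only, and a black line at each list median. SLC6 transporters have the highest median, 0.94, and acyltransferases the lowest, -0.10.

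These counts of relatives were lower with index use or the clock score as a covariate. Both covariates vary with dose, so lost calls cannot tell either of them apart from dose. With index use as a covariate, called genes at 30 µg/kg fell from 908 higher and 666 lower to 302 and 180 over all genes, and in the lists to 0 of 8 kinases, 1 of 15 acyltransferases, 1 of 11 RAB27 genes, 3 of 10 SLC6 transporters and 0 of 12 proline genes. With the clock score as a covariate 12 genes were called higher and 2 lower in all, and none in these lists. What part index use or the clock had in the calls was not tested.

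Cell type markers were counted at 30 µg/kg, where 5.42% of all genes tested were called higher and 3.98% lower. Of 6 enterocyte markers 1, *Sis*, was called higher at 30 µg/kg. Of 4 markers of ileum, the bile acid genes *Fabp6* and *Fgf15* were called lower at 30 µg/kg and *Slc10a2* higher, with a median log2 fold change of -0.37. Markers of the hormone-secreting enteroendocrine cells summed over 7 genes to 114 to 132 CPM in vehicle, 153 to 180 CPM at 10 µg/kg and 212 to 248 CPM at 30 µg/kg, and 4 of 7 were called higher at 30 µg/kg, *Chga* (2.14-fold), *Chgb* (2.28-fold), *Pyy* (2.01-fold) and *Neurod1* (1.85-fold). All 7 had enough counts to test. Goblet markers summed to 21000 to 23700 CPM in vehicle and 29300 to 32100 CPM at 30 µg/kg, with none of 6 called. Proliferation markers had 3 of 6 called lower, and summed to 412 to 586 CPM in vehicle and 212 to 462 CPM at 30 µg/kg. B and plasma cell markers summed to 223 to 367 CPM in vehicle and 75.7 to 146 CPM at 30 µg/kg, with 2 of 5 called lower, and of the 2 large intestine markers tested 1 was called lower. No marker of Paneth cells, T cells, smooth muscle, fibroblasts or pancreatic acinar cells was called at 30 µg/kg. The part of these cells in the rise of the 5 genes was not tested. Enteric neuron and glia markers, relevant to *Slc6a7* because of its known place in brain, summed to 1.1 to 3.31 CPM in vehicle and 2.12 to 3.51 CPM at 30 µg/kg, and 5 of 6 had too few counts to test. The part of such cells in the level of *Slc6a7* was not tested.

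Exons of *Sytl2* and *Slc6a7* overlapped no exon of another gene, and *Sytl2*, *Slc6a7* and *Agpat3* shared no 50-base stretch with one. *Dgkh* shared 786 of 17156 such stretches (4.58%) with other genes. Of the 16975 exon bases of *Dgkh*, 819 were also covered by *Gm48998* on the same strand, and 16 of the 7790 exon bases of *Agpat3* by *Gm40709* on the opposite strand. Neither *Gm48998* nor *Gm40709* was among the genes of the count tables, so neither could have made reads there ambiguous. Ambiguous reads were 0.61 to 1.02% of uniquely aligned reads in each library.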

How the data were processed

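RNA was sequenced from ileal epithelium of 27 mice (NuGen Ovation Mouse libraries). Per the labels and the submitters' processing notes, the authors checked reads with FastQC 0.11.3, trimmed them with Trimmomatic 0.33, aligned them to GRCm38 with Bowtie2 and TopHat2 2.1.0, and converted them with SAMtools 1.2.0. HTSeq 0.6.1 is also named there. The authors deposited raw read counts per Ensembl gene, 1 table per mouse, without normalization. The counting options are not given in the sources used here. Rows that name no gene were left out of library sizes: reads on no feature were 44.48 to 49.52% of uniquely aligned reads. Of 46078 genes, 45143 had a GENCODE M21 symbol.

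Differential expression used edgeR 4.0.16 (R 4.3.3). Genes passing filterByExpr with a minimum count of 10 (16741) were scaled by TMM and fitted by quasi-likelihood with 9 groups of 3 mice, and each dose was compared with vehicle. Adjusted p-values are Benjamini-Hochberg values over all genes tested. Calls needed an adjusted p no higher than 0.05 together with a 1.5-fold change, the adjusted p standing in for the study's posterior probability, which could not be recomputed. Log2 CPM used a prior count of 2. Standard errors of log2 fold changes come from the estimate and the F statistic. Hill curves (half-maximal dose between 0.01 and 30 µg/kg, slope between 0.5 and 8) were fitted by a grid search over dose and slope with numpy 2.4.6. The 95% F limits used scipy 1.17.1, and fitted doses are values of that grid. Interpolated doses used group means of log2 CPM, with log dose between neighbouring doses. On simulated counts the procedure was tested and recovered most of the known changes. The 27 pairs of mice within groups were compared by chi-square, and none agreed within sampling noise (chi-square per degree of freedom 6.99 to 74.3).

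The 5 genes, the gene and marker lists and the clock score were chosen with earlier results of these data known. Genes named are the 5, list members called at 1 or more doses with close relatives, the 2 annotated neighbours on each side and overlapping genes, and for each of the 5 the 3 genes with the highest and 1 with the lowest r. Alternatives were DESeq2 1.42.0 (size factors and Wald test), upper-quartile and library-size scaling, no filter, at least 10 counts in every mouse, only the 6 mice compared, index use or clock score as a covariate, other half-maximal doses, subsets of mice, and leaving out each mouse. P-values treat mice as independent.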

Additional observations from a re-analysis of the deposited data

How the results depend on the processing

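The fold changes of the 5 genes at 30 µg/kg kept their direction under every alternative run. Without single mice they were 2.02 to 2.16 (*Dgkh*), 1.72 to 1.90 (*Agpat3*), 0.87 to 1.03 (*Sytl2*), 1.28 to 1.41 (*Slc6a7*) and 2.22 to 2.47 (*Gm15372*) on the log2 scale. With index use as a covariate they were 1.96 for *Agpat3*, 0.70 for *Sytl2*, 1.11 for *Slc6a7* and 2.72 for *Gm15372*, and *Sytl2* at 3 µg/kg turned to -0.02. The clock score gave 1.44 for *Agpat3*, and library size only gave 0.83 for *Sytl2*. Interpolation of log2 CPM gave a half-maximal dose of 9.73 µg/kg for *Agpat3*. The rank correlation with dose in mice of first index use was 0.36, 0.68, 0.39, 0.37 and 0.46 for *Dgkh*, *Agpat3*, *Sytl2*, *Slc6a7* and *Gm15372*. Of genes called at 30 µg/kg, diacylglycerol kinases went from 2 to 1 with library size only and to 0 with index use, the clock score or the 6 mice alone, and acyltransferases from 2 to 1, 0 and 1 under the last 3. The diacylglycerol and phosphatidic acid list went from 1 to 0 under all 3. RAB27 genes went from 3 to 1 with index use and 0 with the clock score, SLC6 transporters from 7 to 3 and 0, and to 4 in the 6 mice alone, and proline genes from 2 to 0 under both covariates. Without single mice the counts ranged from 4 to 7 (SLC6), 0 to 3 (diacylglycerol and phosphatidic acid), 1 to 3 (kinases), 1 to 3 (acyltransferases) and 2 to 5 (proline), each list reaching its highest count without 30 µg/kg mouse 1 and its lowest without mouse 2. The fit of 6 mice has fewer samples, and otherwise the cause was not tested. No paired analysis was possible because the labels give no replicate numbers, and the mouse numbers used here only name mice in accession order.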
